A study of Mus musculus with 21 samples.

Results

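Wild-type C2C12 cells under methionine restriction at day 1 were compared with the same line at day 0. The comparison was of where peaks of the histone mark H3K36me3 were called. C2C12 cells are cultured mouse myoblasts, precursors that can fuse into muscle fibres. The comparison takes 4 of the 20 libraries with a peak list, 2 of the group labelled WT_D0 and 2 of the group labelled WT_D1_MR. The 2 libraries of WT_D1_CTL, day 1 in control conditions, are given beside them. WT_D1_MR differs from WT_D0 in both day and methionine condition, which cannot be told apart in this comparison. Both day 1 groups are set against the same day 0 libraries, so their differences from day 0 are not independent of each other. The groups carry the label WT and no allele or agent beyond methionine restriction is named. The labels used here do not say how much methionine the restricted cells received, when restriction began, or whether replicates came from separate cultures. P-values therefore measure the spread between these libraries, which may be technical.

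H3K36me3 is trimethylation of lysine 36 on histone H3. The enzyme SETD2 travels with elongating RNA polymerase II and lays the mark over the bodies of transcribed genes, more towards their 3′ ends than at their starts. The methyl groups come from S-adenosylmethionine, which cells make from methionine. In myoblasts that leave the cell cycle, muscle genes are switched on and genes of DNA replication and mitosis are switched off, and the mark can follow such changes in transcription.

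The measure is cover, the percent of a gene body that lies inside the peaks of a library. The mouse build GRCm38 has 19304 protein-coding genes that are 2 kb or longer, and 9514 of them averaged 5% cover or more across 10 wild-type libraries and were tested. Marked genes are those with 50% cover or more. Cover says where peaks were called, not how much of the mark was there, and a cover of 0% means that no peak was called over the gene. In a bulk library, fewer marked cells and less of the mark per cell cannot be told apart. The sequencing depth behind each list is unknown.

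Myoblast identity was visible in the lists. Des was covered to 83.9% and 89.1% at day 0, Cdh15 to 87.4% and 94.1%, and Vim to 98.2% and 98.9%. Myf5 was covered to 12.2% and 11.6%, below the limit for testing. Of the 7 myoblast markers tested, 5 were marked in both day 0 libraries. Of 20 markers of fat, bone, blood, endothelial, epithelial and neural cells, 18 had 0% cover in both libraries of all 3 groups. The 2 others were Tubb3, a neural tubulin gene, and Cd68, a macrophage gene under 2 kb in length. Tubb3 had a mean of 64.2% at day 0, 62.8% at control day 1 and 37.3% at restricted day 1. Cd68 had 100% in both day 0 libraries, 100% and 96.9% at control day 1 and 0% in both restricted ones.

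Peaks covered less of the genome at restricted day 1. They spanned 178.6 and 159.2 Mb at day 0, 140.2 and 150.2 Mb at control day 1, and 128.5 and 109.9 Mb at restricted day 1. Both restricted libraries lay below both day 0 and both control libraries. The mean was 168.9 ± 13.7 Mb (SD, n = 2) at day 0 and 119.2 ± 13.2 Mb (SD, n = 2) at restricted day 1, a change of -29.4%, against -14.04% for control day 1. The exact two-sided permutation test gave p = 0.333, the smallest that 2 libraries against 2 allow. The number of peaks overlapped between the groups, with 73037 and 86381 at day 0 and 74942 and 71835 at restricted day 1. The share of the covered length inside gene bodies was 94.9% and 94.7% at day 0 and 96.2% and 96.5% at restricted day 1.

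The restricted lists held less of their length in wide peaks, while the median peak width overlapped between the groups, at 0.909 and 0.791 kb at day 0 and 0.799 and 0.767 kb at restricted day 1 (exact permutation p = 0.667). The width N50, the peak width at and above which peaks hold 50% of the covered length, was 6.52 and 4.10 kb at day 0 and 3.46 and 2.82 kb at restricted day 1, with 3.63 and 4.40 kb at control day 1. Over 4972 tested genes of 10 to 50 kb, the longest unbroken stretch filled a median of 34% and 25% of the body at day 0, 20.8% and 23.7% at control day 1, and 19.3% and 15.2% at restricted day 1. The median number of stretches per gene was 3 and 4 at day 0 and 4 in both restricted libraries. In this length class the median longest stretch was shorter in both restricted libraries than in the other 4. Over 2304 genes above 50 kb it was 8.19% and 5.34% at day 0, 4.66% and 5.64% at control day 1 and 5.08% and 4.02% at restricted day 1, so there the restricted libraries lay below day 0 but overlapped with control day 1.

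Marked genes fell in number. There were 5462 and 5038 at day 0, 4264 and 4541 at control day 1, and 3053 and 2417 at restricted day 1. The mean was 5250 ± 300 (SD, n = 2) at day 0 and 2735 ± 450 (SD, n = 2) under restriction, a change of -47.9%, with an exact permutation p of 0.333, again the smallest possible. Genes with at least 90% cover numbered 645 and 479 at day 0 and 63 and 35 at restricted day 1. Genes with any cover changed less, from 10376 and 10497 to 9955 and 9687.

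**Figure D1:**
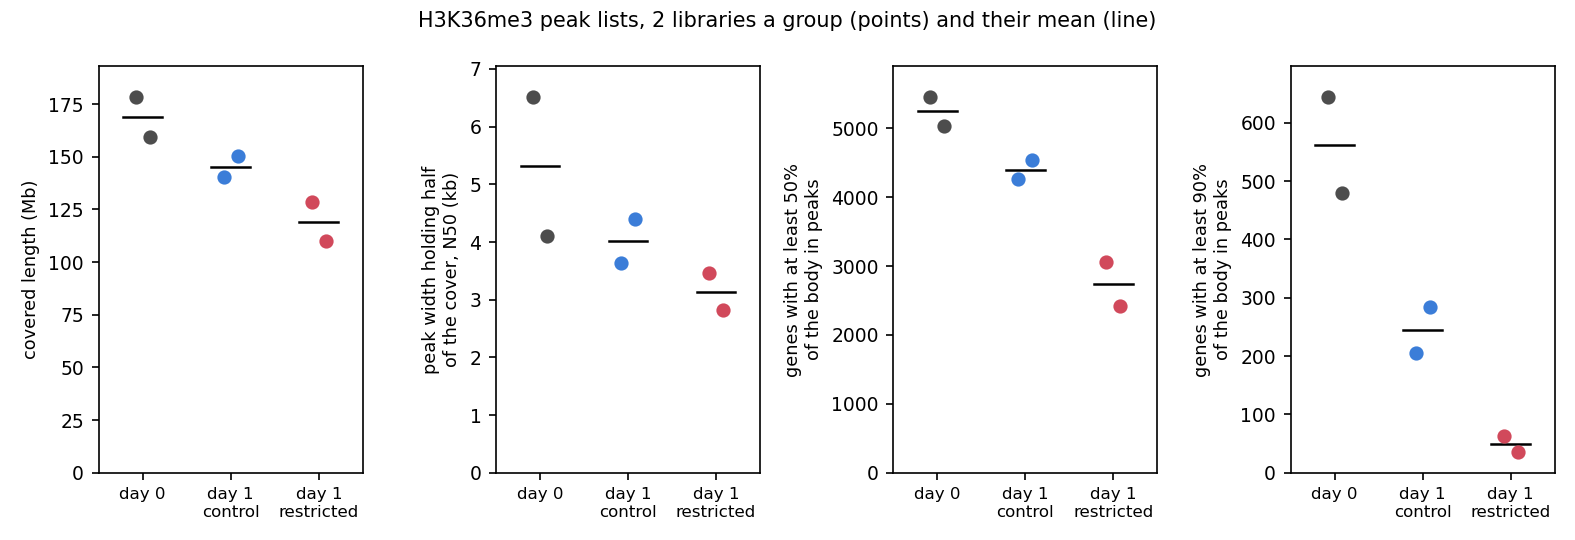
Values of each library at day 0, control day 1 and restricted day 1, with covered length in Mb, width N50 in kb, and the numbers of genes with at least 50% and at least 90% cover on the vertical axes. Points are single libraries and lines are group means. In covered length and marked genes both restricted libraries lie below the other 4 libraries.

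Of 4769 genes marked in both day 0 libraries, 2267 (47.5%) were marked in both restricted libraries, 1819 were below 50% in both, and 683 were split. In the control libraries, 3916 (82.1%) of the same genes were marked in both and 401 were below 50% in both. Of the 4769 genes, 102 had no peak in either restricted library. In the control libraries 0 of the 4769 were without a peak in both. These 102 genes had a median length of 3.40 kb, none was 10 kb or longer, and 68 were marked in both control libraries. From under 50% in both day 0 libraries, 3 genes became marked in both restricted libraries and 39 in both control libraries. The 3 were Mbip (45.3% and 39.5% to 52.6% and 58.4%), Fastkd2 (49.3% and 43.2% to 63.9% and 51.3%) and Dscc1 (49.5% and 48.5% to 51.9% and 51.2%), all with at least 1 value near the threshold and none passing the test across genes. In equal-length peak lists, described below, Mbip and Fastkd2 were called higher, by 43.8 and 37.7 points, while with only peaks at −log10 q of 3 or more Fastkd2 was called lower (-24.1 points, adjusted p = 0.0132).

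microRNA genes are short compared with a peak, so a precursor often lies wholly inside or outside one, and some are covered in part. Eligible genes had 100% cover in both day 0 and both control libraries and then either 0% or 100% in both restricted libraries. The mature sequences below are a selection from these genes, not all of them. They come from RefSeq on GRCm38.p6, read 5′ to 3′, with the seed (bases 2 to 8, which pairs with target RNAs) in capitals. The first set had no peak in either restricted library. It starts with miR-206 (gene at chr1:20679010-20679082) and miR-133b (chr1:20682769-20682887), muscle microRNAs that lie in the same host transcript, Lincmd1.
miR-206-3p: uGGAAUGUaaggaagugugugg
miR-133b-3p: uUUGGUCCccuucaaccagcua
let-7b-5p: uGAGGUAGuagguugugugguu
let-7c-5p (from Mirlet7c-2): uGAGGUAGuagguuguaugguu
let-7d-5p: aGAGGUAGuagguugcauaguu
let-7e-5p: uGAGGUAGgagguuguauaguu
miR-23a-3p: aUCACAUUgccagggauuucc
miR-27a-3p: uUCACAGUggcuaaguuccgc
miR-24-3p (from Mir24-2): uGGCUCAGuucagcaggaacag
miR-15b-5p: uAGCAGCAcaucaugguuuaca
miR-195a-5p: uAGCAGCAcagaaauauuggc
miR-21a-5p: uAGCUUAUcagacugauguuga
miR-214-3p: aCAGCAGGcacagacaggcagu
miR-29a-3p: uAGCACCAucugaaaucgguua

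The second set stayed wholly inside peaks in both restricted libraries. It is shown because several members carry a seed of the first set.
let-7a-5p (from Mirlet7a-1): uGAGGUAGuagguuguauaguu
miR-27b-3p: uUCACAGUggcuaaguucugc
miR-15a-5p: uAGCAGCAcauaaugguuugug
miR-16-5p (from Mir16-1): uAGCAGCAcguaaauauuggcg
miR-22-3p: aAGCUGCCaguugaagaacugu
miR-31-5p: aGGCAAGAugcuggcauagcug

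Genes with the same seed could differ in fate, and the second set was picked in part to show this. No count over all seed families was made. The let-7 seed GAGGUAG, the miR-27 seed UCACAGU and the miR-15/16 seed AGCAGCA each occur in both sets. Mirlet7d (mature sequence at chr13:48536078-48536099) had no restricted peak, Mirlet7a-1 nearby (chr13:48538239-48538260) remained inside one in both libraries, and Mirlet7f-1, which lies between them, had 0% in restricted replicate 1 and 100% in replicate 2. Mir23a, Mir27a and Mir24-2, which lie side by side on chromosome 8, all had 0% cover, while Mir27b on chromosome 13 had 100%. Over all 1228 microRNA genes in the annotation, 386 and 392 lay wholly inside peaks at day 0, 362 and 356 at control day 1, and 282 and 243 at restricted day 1. Of 354 that were inside in both day 0 libraries, 203 (57.3%) stayed inside in both restricted libraries and 66 (18.6%) had no cover in either, 46 of which were wholly inside in both control libraries. In the control libraries 313 (88.4%) stayed and 9 (2.54%) had no cover. These shares can be read against the genome as a whole, where 22.1% of the bases covered in both day 0 libraries were in neither restricted list. With lists cut to one covered length, 57.8% of 287 stayed and 18.1% had no cover. Small genes that share a peak with a neighbour or a host are not separate measurements.

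Across genes, cover was lower at restricted day 1. Of 9514 genes tested, 5301 (55.7%) were called by limma at a Benjamini-Hochberg adjusted p under 0.05, 5278 lower (55.5%) and 23 higher (0.242%). The median difference was -13.8 points of cover. Both restricted libraries were below both day 0 libraries for 7007 genes (73.6%) and above both for 147 (1.55%). Control day 1 against the same day 0 libraries gave 631 calls (6.63%), 539 lower (5.67%) and 92 higher (0.967%), with a median difference of -5.31 points. The number of genes higher at restricted day 1 rested on single libraries, with 131 without day 0 replicate 1 and 8 without either day 0 replicate 2 or restricted replicate 1. Restricted against control day 1 in the same model gave 3648 calls (38.3%), 3422 lower (36%) and 226 higher (2.38%).

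The direction of these calls depends on how the lists are scaled. In equal-length lists, made by dropping the weakest peaks of each wild-type list until it covered as much as the shortest (109.9 Mb), there were 8362 genes tested and 3491 called (41.7%), 2478 lower (29.6%) and 1013 higher (12.1%), with a median difference of -5.78 points. Of the 5278 genes lower in the deposited lists, 2451 stayed lower there and 99 became higher. Centring each library on its median gene added 23.7 points to every gene's difference and gave 5488 calls (57.7%), 4345 higher (45.7%) and 1143 lower (12%). Centring calls a gene with no peak in any of the 6 libraries, such as Mef2c, higher by 23.7 points, and 956 of the 5278 lower genes became higher. All directions below are those of the deposited lists, and where a list of genes has a median fall of under 23.7 points its centred median is positive.

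**Figure D2:**
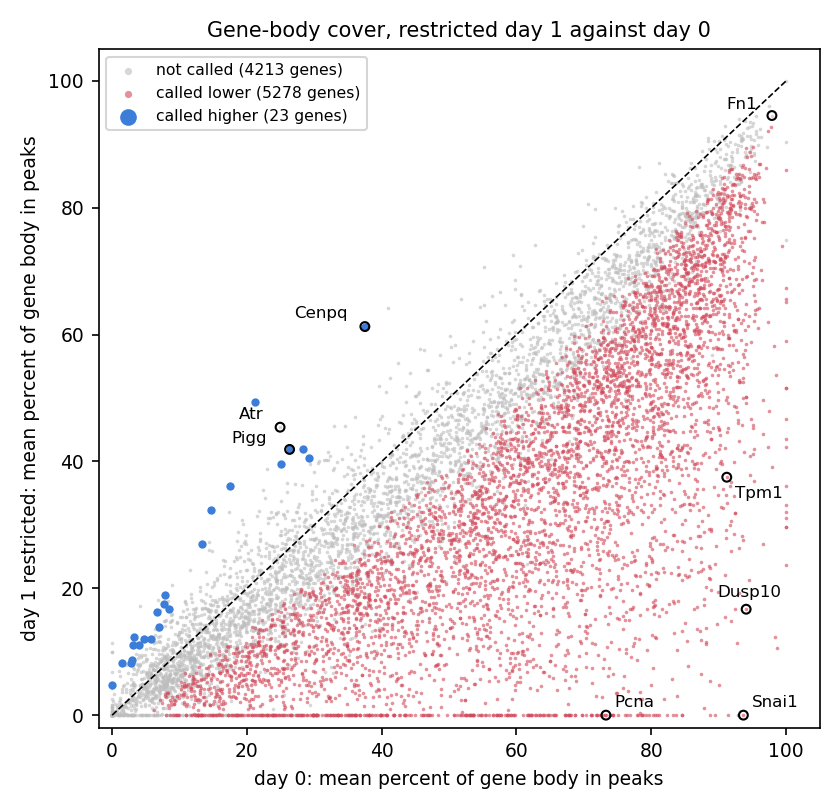
Mean cover of each tested gene at day 0 (horizontal, percent) against restricted day 1 (vertical, percent), with called genes coloured by direction and the diagonal marking equal cover. Most points lie below the diagonal, 5278 genes are called lower and 23 higher.

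Gene length went with the size of the change. Genes of 2 to 5 kb had a median cover of 56.5% at day 0 and 11.4% at restricted day 1, and 79.9% of 904 were called lower. For genes of 5 to 10 kb the medians were 62.8% and 30.7%, with 71.1% of 1334 lower. Genes of 20 to 50 kb went from 60.1% to 40.2%, with 49.7% of 2862 lower. At 100 to 200 kb the medians were 24.6% and 17.1%, with 35.4% of 706 lower. In the equal-length lists the median difference was -33.7 points at 2 to 5 kb, -8.85 at 10 to 20 kb and 2.34 at 50 to 100 kb, and after centring it was -11.4 at 2 to 5 kb and 14.9 at 50 to 100 kb. Genes of 2 to 5 kb had the most negative median under each scaling.

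Relative to its day 0 cover, the beginning of the gene body kept a smaller share than the end, but in points of cover it did not lose more in every length class. Strand was available for 7711 of the tested genes (81.0%). In 4042 genes of 10 to 50 kb, mean cover in the first 20% of the body was 23.8% at day 0 and 8.67% at restricted day 1, so 36.4% of it was kept. In the last 20% it was 73.4% and 59.3%, and 80.8% was kept. The fall in points was close in both, -15.1 and -14.1. In 1813 genes of 2 to 10 kb the first 20% kept 21.1% and the last 20% 54.5%, while the difference in points was -8.33 in the first 20% and -36.8 in the last. In 1856 genes over 50 kb the shares kept were 48.2% and 82.1% and the differences -10.9 and -9.97 points. Control day 1 kept 73.6% of the first 20% and 93.3% of the last in genes of 10 to 50 kb. These are descriptions over genes, which are not replicates.

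**Figure D3:**
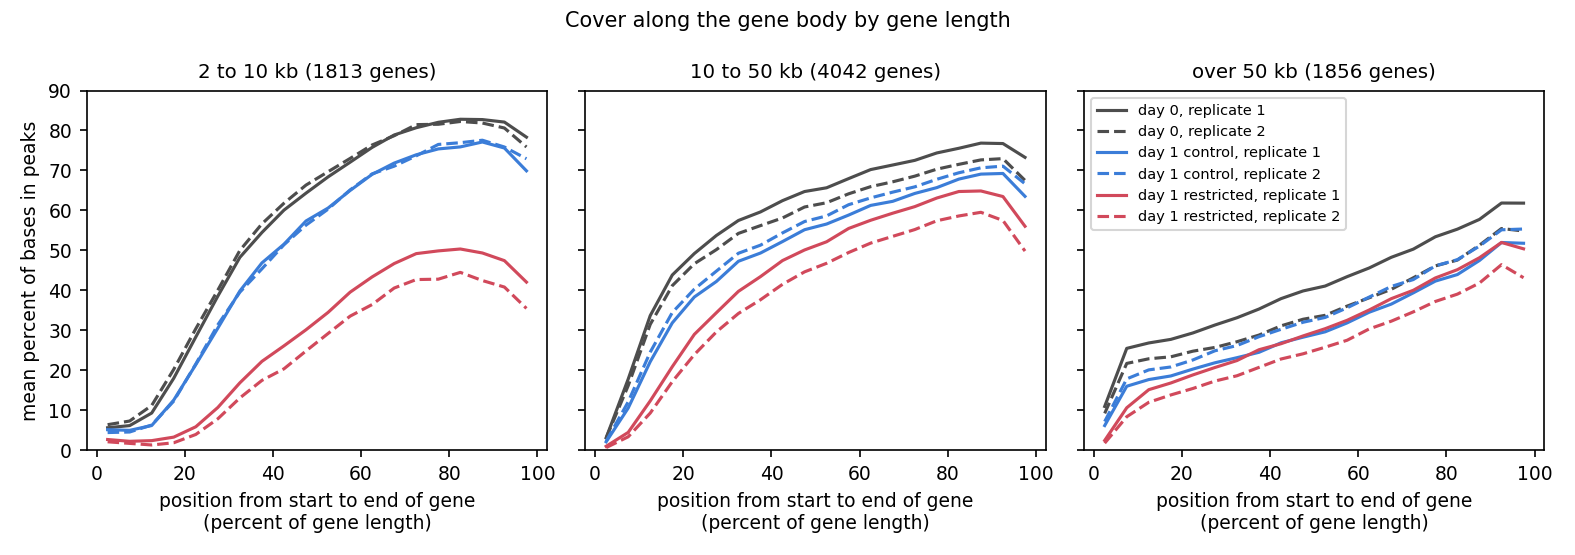
Mean cover (percent, vertical) along the gene body from start to end in 20 equal parts (horizontal), for tested genes of 2 to 10, 10 to 50 and over 50 kb, 1 line per library. The restricted lines run below the day 0 lines, and in genes of 10 to 50 kb the first 20% falls to 8.67% from 23.8%.

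The strength of a day 0 peak went with its fate. Day 0 peaks were put into 4 groups of equal size by the authors' fold enrichment within each list. Some overlap with a peak of either restricted library was found for 35.6% of the weakest group and 93.5% of the strongest in replicate 1, and for 37.5% and 94.3% in replicate 2. The share was larger in each stronger group in both lists, and it was 66.3% and 69.1% over all peaks. Peaks in the strongest group were also wider, with a median of 3.88 kb against 0.510 kb in the weakest group of replicate 1. By chromosome, the mean covered length at restricted day 1 was between 60.8% (X chromosome) and 75.9% (chromosome 10) of that at day 0.

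Peaks of both day 0 libraries shared 138.8 Mb, of which 30.7 Mb (22.1%) lay in neither restricted list, and 90.9% of the lost length was in gene bodies. It held 1484 stretches of at least 2 kb and 7 of at least 10 kb. The longest, chr15:85671942-85688132 (16.2 kb), holds no annotated gene and lies upstream of Mirlet7c-2 and Mirlet7b. The next were in Sema7a (14.2 kb at chr9:57941123-57955357), at chr6:31074823-31088367 (13.5 kb, no annotated gene, upstream of Mir29a), in Nfic (12.5 kb at chr10:81407609-81420141), in Dusp10 (12.03 kb at chr1:184039356-184051387), in Myh9 (11.7 kb at chr15:77829806-77841491) and at chr11:79712720-79724181 (11.5 kb, no annotated gene). A stretch of 9.96 kb at chr8:84201182-84211141 holds Mir23a, Mir27a and Mir24-2 beside Zswim4. Another of 9.04 kb lies in Runx1, a transcription factor gene whose body went from 80.4% and 78.1% to 24.8% and 16.6%. In the other direction 2.21 Mb was in both restricted lists and neither day 0 list, with no stretch of 2 kb or more. The longest such stretch was 1.45 kb in Atm, the DNA damage kinase gene. In the equal-length lists the gained length held 643 stretches of at least 2 kb and the lost length 1579. With only peaks at −log10 q of 3 or more these numbers were 13 and 5680.

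Dusp10 led the genes of at least 10 kb that fell under both the deposited and the equal-length lists. It encodes a phosphatase of stress-activated MAP kinases. Its cover (gene at chr1:184034381-184075636) was 94.3% and 93.8% at day 0, 86.4% and 92.3% at control day 1, and 19.1% and 14.3% at restricted day 1. It fell by 77.4 points (SE 3.62, adjusted p = 1.48e-05). Arf1, a small GTPase of Golgi traffic, went from 86.4% and 84.2% to 10.8% and 12.7%, and Ythdf2, a reader of methylated adenosine in mRNA, from 91.2% and 84.3% to 18.5% and 16.3%. Kansl2, a subunit of a histone acetyltransferase complex, went from 92.9% and 93.3% to 26.9% and 11.5%. 1810013L24Rik, Niban2 and Ppp1r18 completed the set, with falls of 75.3, 73.2 and 70.4 points. Groups that do not overlap were a condition for naming these 7 genes. Control day 1 was called different from day 0 in none of them, with control adjusted p-values of 0.0593 (Arf1) or more.

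Among shorter genes the set was led by Snai1, a repressor of epithelial genes (chr2:167538195-167542814). It had 89.1% and 98.2% at day 0, 87.5% and 86.1% at control day 1, and no peak in either restricted library (fall of 93.7 points, SE 6.21, adjusted p = 2.66e-05). The ribosomal protein genes Rps18, Rps20 and Rps9 followed, each with 88.8% or more at day 0 and no restricted peak. Groups that do not overlap and a call in the equal-length lists were conditions for naming these 4 genes. They stayed called lower after centring, which adds 23.7 points, less than any of their falls.

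Genes with higher cover were few, with rises of 4.79 to 28.2 points (median 9.54). Of the 23, 14 had a mean of under 20% at restricted day 1 and 1 of over 50%. Pigg, an enzyme of GPI anchor synthesis (chr5:108312813-108349359), went from 28.0% and 24.6% to 42.6% and 41.3%, with 19.9% and 21.4% at control day 1. It rose by 15.6 points (SE 3.13, adjusted p = 0.00337) and kept its call without each library in turn, with an adjusted p of at most 0.0145, but not with the 4 compared libraries alone (adjusted p = 0.054). Cenpq, a centromere protein gene (chr17:40920809-40934574), had 52.9% and 22.1% at day 0, 12.4% and 17.1% at control day 1 and 60.6% and 62.0% at restricted day 1. It rose by 23.8 points (SE 8.11, adjusted p = 0.0353), but the day 0 replicates lay far apart and its call did not hold without each library, with an adjusted p of up to 0.136. Next to it Mmut, the methylmalonyl-CoA mutase gene (chr17:40934685-40961990), went from 22.7% and 12.2% to 34.7% and 37.7%, a call (adjusted p = 0.0104) that was lost with the 4 compared libraries alone (adjusted p = 0.0503) and when single libraries were left out (adjusted p of up to 0.0626). Lztfl1, Cryz, Zfp101 and Agk met the same rule with rises of 17.6, 14.4, 13.6 and 11.3 points, and lost the call without at least 1 library. With only peaks at −log10 q of 3 or more, the differences of these 4 were below 0, at -2.98, -0.31, -5.98 and -1.14 points. Of the 23, 9 were also higher in the equal-length lists and 13 were not tested there, 3 were called from the 4 compared libraries alone, and 2 held without each library.

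**Figure D4:**
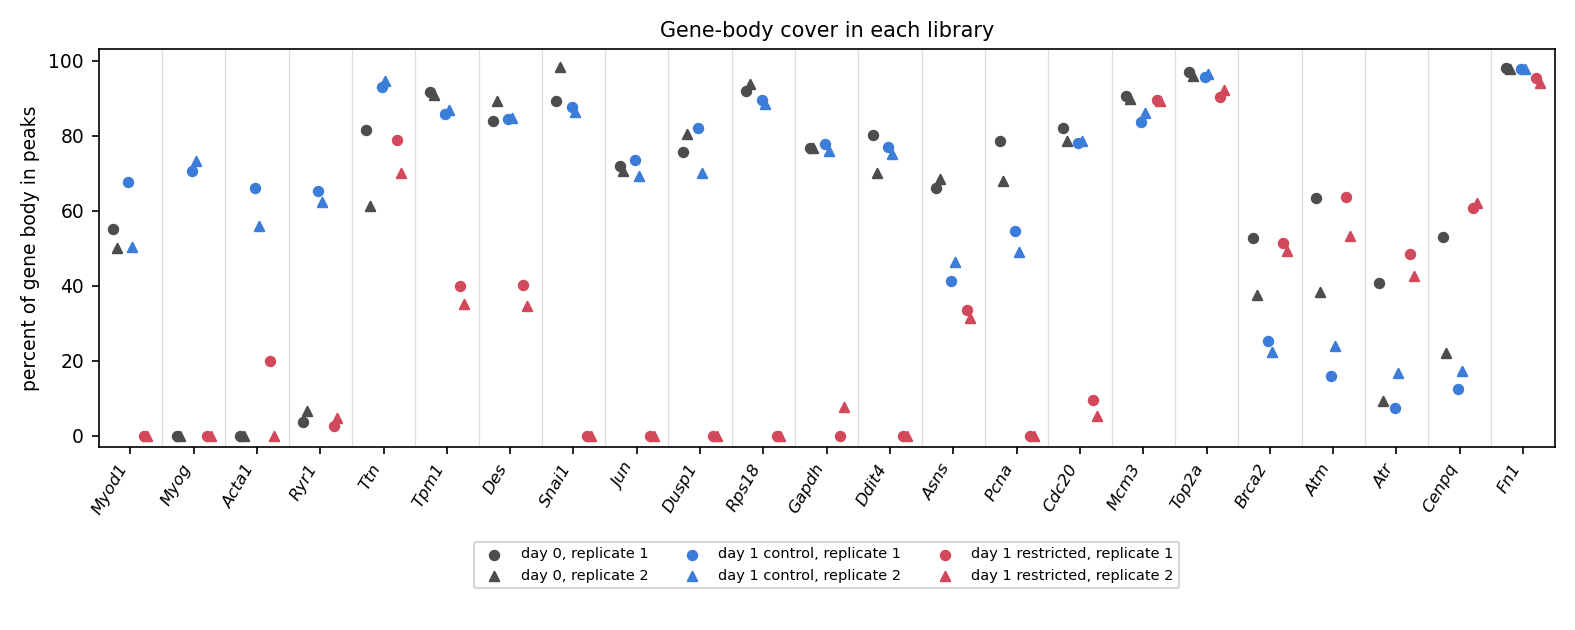
Cover (percent of the gene body, vertical) of 23 genes (horizontal) in each library of day 0, control day 1 and restricted day 1, with colour for the group and marker shape for the replicate. Snai1, Jun and Rps18 sit at 0% in both restricted libraries, Myog has cover in the control libraries alone, and Mcm3 and Fn1 stay near the top in all 6.

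Of 15 tested myogenic regulators, 10 (66.7%, against 55.5% of all tested genes) were lower and 0 higher (median -11.0 points, against -13.8 over all genes). In the equal-length lists 5 were lower and 0 higher, and after centring 3 were lower and 9 higher. Without restricted replicate 2, 6 were lower. Myod1, the factor that commits cells to muscle, had 55.1% and 50.1% at day 0, 67.7% and 50.2% at control day 1 and no restricted peak, a fall that passed the test (adjusted p = 0.00025) but not in the equal-length lists (adjusted p = 0.294). Six4 went from 81.2% and 82.6% to 46.4% and 29.9%. Cdh15, M-cadherin, kept more, with 74.4% and 68.3% after 87.4% and 94.1%.

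Myog, the gene of myogenin, separated the day 1 groups. It had no peak in either day 0 library or in either restricted library, and 70.6% and 73.2% cover at control day 1. Its control difference from day 0 was called (71.9 points, adjusted p = 7.55e-05). The 150 bases upstream of its start, from RefSeq, are shown because this gene gained cover in one day 1 group and not in the other. Capitals mark CANNTG, the E-box that myogenic factors bind, at -138 to -133 and -12 to -7, and TCAGGTT, the MEF3 motif of muscle gene promoters, at -84 to -78.
Myog promoter (chr1:134289854-134290003, + strand): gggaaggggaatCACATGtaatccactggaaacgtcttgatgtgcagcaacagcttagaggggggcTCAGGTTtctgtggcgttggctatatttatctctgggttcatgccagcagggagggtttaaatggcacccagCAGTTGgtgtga
Searched on both strands, CANNTG occurs in 43.9% and TCAGGTT in 1.90% of 17492 protein-coding upstream windows of that length.

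Sarcomere genes were mostly unmarked at both points. Of 31 tested, 22 had no peak in either day 0 library, and 18 of these had none under restriction. In 9 of the 18, both control libraries had cover. By the test 5 (16.1%, against 55.5% of all tested genes) were lower and 0 higher (median 0.0 points), in the equal-length lists 3 were lower and 1 higher, and centring, which adds 23.7 points to genes without peaks, called 26 higher and 3 lower. The 22 genes without a day 0 peak could not be called lower, so the 5 lower genes came from those covered in myoblasts already. Tpm1, tropomyosin, went from 91.7% and 90.7% to 40.0% and 35.04% (fall of 53.7 points, SE 3.07, adjusted p = 1.92e-05), Tpm2 from 85.1% and 83.0% to 41.9% and 37.4%, and Tnnt2, cardiac troponin T, from 39.5% and 43.0% to 0% and 1.79%. Actn3 fell by 28.6 points, with no call in the equal-length lists (-10.9 points, adjusted p = 0.345) or after centring (-4.93 points, adjusted p = 0.501). Ldb3 fell by 11.9 points (adjusted p = 0.0408), a call lost without each library in turn (adjusted p of 0.0662 to 0.144) and with the 4 compared libraries alone (adjusted p = 0.0846), and its difference was 10.7 points in the equal-length lists and 11.7 after centring. Ttn, the titin gene, had 81.5% and 61.2% at day 0, 92.8% and 94.5% at control day 1 and 78.8% and 70.1% at restricted day 1, with no call (adjusted p = 0.667) but a difference of 13.3 points that was called without day 0 replicate 1 and one of 26.9 points that was called in the equal-length lists. Without day 0 replicate 2 the difference was below 0, and with peaks at −log10 q of 3 or more it was -3.14 points, neither called. Acta1, skeletal actin, had none at day 0, 66.1% and 55.8% at control day 1, and 19.8% and 0% under restriction. Myh3, embryonic myosin, and Tnnt1, slow troponin T, had 0% at day 0 and in both restricted libraries, beside 29.8% and 22.4% for Myh3 and 44.5% and 38.6% for Tnnt1 at control day 1.

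Of 27 tested genes of the muscle membrane and of fusion, 11 (40.7%, against 55.5% of all tested genes) were lower and 0 higher (median -7.89 points, 8 lower and 1 higher at equal length, 6 lower and 17 higher when centred). Of the 27, 8 had no peak in either day 0 library and so could not be called lower in the deposited lists. Chrnd, a subunit of the acetylcholine receptor, went from 75.2% and 75.7% to 24.7% and 14.8%, and Des, the intermediate filament desmin, to 40.0% and 34.5%. Ryr1, the calcium release channel, had 3.57% and 6.44% at day 0, 65.3% and 62.4% at control day 1 and 2.64% and 4.58% at restricted day 1. Mymk, the fusion protein myomaker, had 26.8% and 46.9% at control day 1 and 0% in the other 4 libraries. Of 24 genes of Notch and insulin-like growth factor signalling, 19 (79.2%, against 55.5% of all tested genes) were lower and 0 higher (median -17.6 points, 7 lower and 2 higher at equal length, 3 lower and 8 higher when centred, 10 lower without restricted replicate 2). Igfbp5 fell from 85.5% and 83.5% to 34.2% and 32.0%, and Irs1, the insulin receptor substrate, from 91.5% and 83.2% to 25.7% and 22.7%. The Notch ligand gene Dll1 had 5.47% and 9.82% at day 0, 71.5% and 65.6% at control day 1 and 6.19% and 8.59% at restricted day 1.

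Of 23 regulators of G1 and cell cycle exit, 17 (73.9%, against 55.5% of all tested genes) were lower and 0 higher (median -31.2 points, 11 lower and 0 higher at equal length, 9 lower and 3 higher when centred), and 12 of the 23 are under 10 kb, 11 of them lower, in a class where 71.1% to 79.9% of all tested genes were. Btg1, an antiproliferative gene, had 87.6% and 78.7% at day 0 and no restricted peak. Cdkn1b, the inhibitor p27, had 71.0% and 57.6% at day 0 and none under restriction, while Cdkn1a, the inhibitor p21, had 52.2% and 59.8% before and 49.5% and 40.6% after, with no call (adjusted p = 0.153). Ccnd1, cyclin D1, fell from 84.7% and 84.9% to 27.1% and 27.4%.

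Of 50 DNA replication genes 23 (46%, against 55.5% of all tested genes) were lower and 0 higher (median -12.8 points, 14 lower and 5 higher at equal length, 3 lower and 24 higher when centred). Pcna, the sliding clamp, had 78.6% and 67.9% at day 0, 54.5% and 48.96% at control day 1 and no restricted peak (fall of 73.3 points, SE 4.69, adjusted p = 2.42e-05). Pola2, a polymerase alpha subunit, fell from 81.0% and 78.8% to 39.4% and 27.0%. Other genes of the same machinery had no call. Mcm3, of the replicative helicase, had 90.6% and 89.8% before and 89.4% and 89.2% after, and Pole, polymerase epsilon, 90.4% and 84.5% before and 91.2% and 86.8% after, where control day 1 had 64.3% and 70.4%.

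Of 47 mitosis genes 21 (44.7%, against 55.5% of all tested genes) were lower and 0 higher (median -10.3 points, 13 lower and 4 higher at equal length, 2 lower and 26 higher when centred, 11 lower without restricted replicate 2). Cdc20, the activator of the anaphase-promoting complex, fell from 81.9% and 78.5% to 9.54% and 5.20%, with 77.9% and 78.5% at control day 1. Ccnb1, cyclin B1, fell from 91.4% and 89.2% to 50.7% and 28.6%. Top2a, topoisomerase II alpha, had 96.9% and 95.8% before and 90.3% and 92.0% after, with no call. The Cdc20 promoter is shown because the gene has the largest fall in the mitosis list. Capitals mark TTTGAA, the cell cycle homology region of G2 and M phase genes, at -18 to -13.
Cdc20 promoter (chr4:118437344-118437493, - strand): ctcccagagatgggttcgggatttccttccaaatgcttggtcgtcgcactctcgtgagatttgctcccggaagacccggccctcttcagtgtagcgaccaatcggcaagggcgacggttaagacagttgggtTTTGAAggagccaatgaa
It occurs, on either strand, in 8.15% of the 17492 windows and in 15 of the 40 mitosis genes with a window.

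Of 36 centromere and kinetochore genes 12 (33.3%, against 55.5% of all tested genes) were lower and 1, Cenpq, was higher (0.242% of all tested genes were) (median -11.3 points, 7 lower and 6 higher at equal length, 2 lower and 18 higher when centred). Cenpb, a DNA-binding centromere protein, fell from 67.7% and 77.6% to 5.69% and 0%, and Cenpa, the centromeric histone, from 85.6% and 87.2% to 45.2% and 42.6%. Of 47 DNA repair genes 9 (19.1%, against 55.5% of all tested genes) were lower and 0 higher (median -4.25 points, 3 lower and 20 higher at equal length, 1 lower and 39 higher when centred, 4 lower without restricted replicate 2). Msh6, of mismatch repair, fell from 85.1% and 81.5% to 55.5% and 44.1%. Brca2, of homologous recombination, had 52.6% and 37.4% at day 0, 25.2% and 22.4% at control day 1 and 51.4% and 49.2% at restricted day 1. Atm had 63.4% and 38.3%, 15.9% and 23.8%, and 63.5% and 53.2% in the same order. Atr, a checkpoint kinase, had 40.6% and 9.20%, 7.45% and 16.7%, and 48.4% and 42.4%, with an adjusted p of 0.0863. In these 3 genes day 0 replicate 1 had more cover than replicate 2, and the control libraries lay below both restricted ones. Without day 0 replicate 1 all 3 were called higher, by 12.8 points (Brca2), 20.04 points (Atm) and 36.2 points (Atr). In the equal-length lists they were also called higher, by 48.4 (Brca2), 55.4 (Atm) and 37.6 points (Atr), against uncalled differences of 5.22, 7.51 and 20.5 points in the deposited lists. The direction did not hold throughout, with uncalled differences of -2.39, -5.02 and 4.77 points without day 0 replicate 2 and -4.81, -4.51 and 0.45 points for peaks at −log10 q of 3 or more. The median length of the tested repair genes is 51.2 kb, and 41.1% of all tested genes of 50 to 100 kb were lower.

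**Figure D5:**
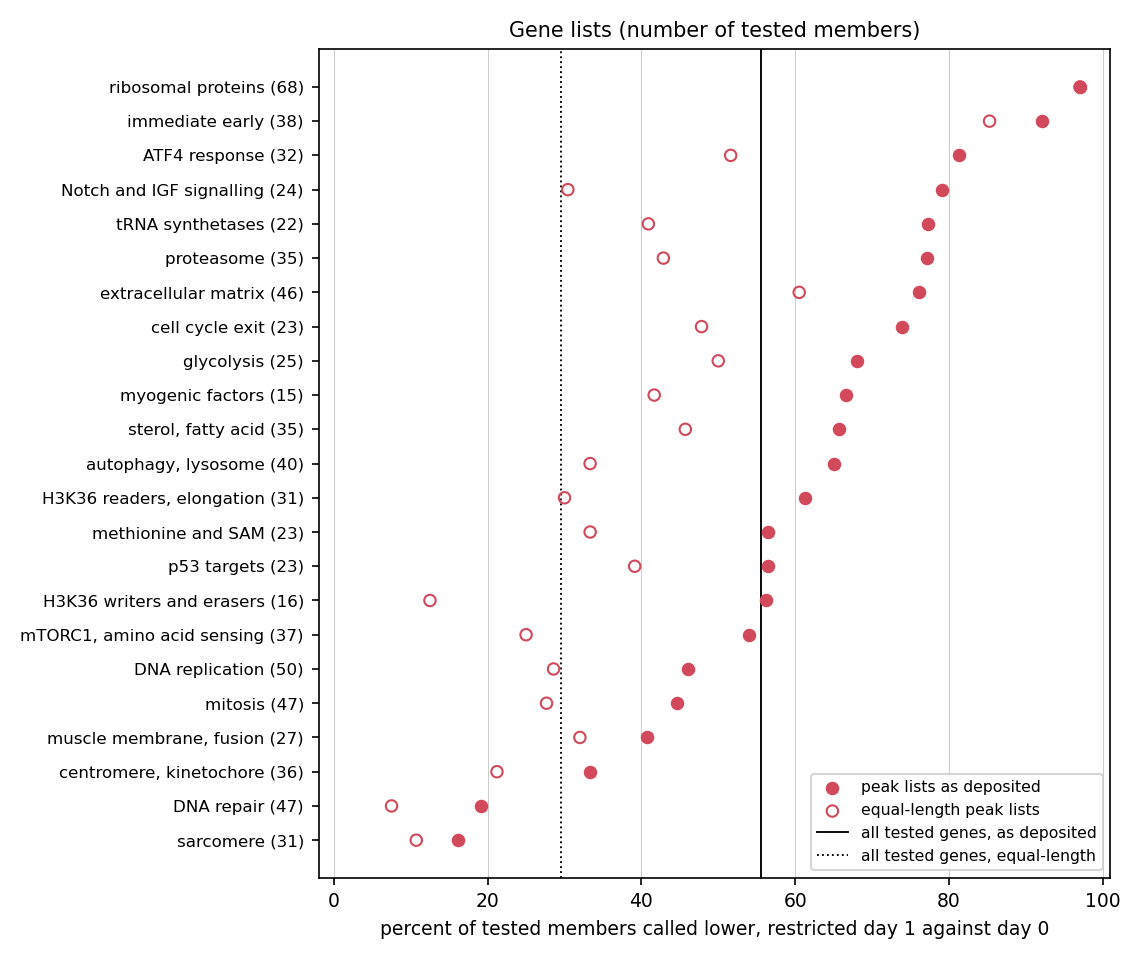
Percent of the tested members of each gene list called lower at restricted day 1 against day 0 (horizontal), from the deposited lists (filled points) and the equal-length lists (open points, hidden behind the filled one for ribosomal proteins). Lines give the same share over all tested genes, 55.5% and 29.6%. In the deposited lists ribosomal protein and immediate early genes have the largest shares and sarcomere genes the smallest. In the equal-length lists DNA repair genes have the smallest, 3 of 40. Genes without a day 0 peak could not be called lower in the deposited lists. These were 22 of the 31 sarcomere genes and 8 of the 27 muscle membrane and fusion genes.

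Genes of the amino acid response were among those that fell. ATF4 is a factor whose translation rises when amino acids run short, and it switches on amino acid synthesis and transport. Of 32 tested genes of this response 26 (81.25%, against 55.5% of all tested genes) were lower and 0 higher (median -26.1 points, 16 lower and 0 higher at equal length, 9 lower and 7 higher when centred). Ddit4, an mTORC1 inhibitor, had 80.1% and 69.9% at day 0 and no restricted peak, Chac1, a glutathione-cleaving enzyme, went from 75.6% and 74.8% to 20.7% and 0%, and Eif4ebp1, a translation repressor, from 76.9% and 76.5% to 13.03% and 17.1%. Asns, asparagine synthetase, had 65.9% and 68.4% at day 0, 41.3% and 46.2% at control day 1 and 33.5% and 31.3% under restriction (fall of 34.7 points, SE 3.601, adjusted p = 0.000132). Its cover was below day 0 in both day 1 groups. Atf3 and Mthfd2 had no call, and Herpud1 had 66.0% and 68.1% before and 69.0% and 66.3% after.

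The Asns promoter is shown as a target of ATF4. Capitals mark TGATGNAA, the core of the amino acid response element, at -23 to -16.
Asns promoter (chr6:7693210-7693359, - strand): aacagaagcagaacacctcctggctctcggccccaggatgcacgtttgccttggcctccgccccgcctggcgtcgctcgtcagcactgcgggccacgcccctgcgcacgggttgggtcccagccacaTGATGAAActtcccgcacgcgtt
On either strand the motif is found in 2.02% of all windows and in 7 of the 35 windows of this list. None of the motifs printed here overlap each other in their promoters. A match is a description of letters, not of binding.

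Of 22 tRNA synthetase genes 17 (77.3%, against 55.5% of all tested genes) were lower and 0 higher (median -14.3 points, 9 lower and 1 higher at equal length, 2 lower and 12 higher when centred). Qars fell from 89.1% and 90.1% to 58.9% and 50.7%, while Mars1, which charges tRNA with methionine, fell by 8.03 points from 90.2% and 91.7%, a call lost without 3 of the 4 libraries in turn. Of 37 genes of mTORC1 and amino acid sensing 20 (54.1%, against 55.5% of all tested genes) were lower and 0 higher (median -10.04 points, 8 lower and 3 higher at equal length, 5 lower and 24 higher when centred, 11 lower without restricted replicate 2).

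Of 23 tested genes of methionine metabolism, 13 (56.5%, near the 55.5% of all tested genes) were lower and 0 higher (median -16.5 points, 7 lower and 3 higher at equal length, 2 lower and 10 higher when centred). The largest falls were in salvage, the route that rebuilds methionine from methylthioadenosine. Mri1 went from 84.2% and 81.8% to 30.7% and 14.2% (fall of 60.5 points, SE 7.12, adjusted p = 0.000253), and Mtap, the first enzyme of the route, from 93.0% and 86.9% to 53.7% and 37.0%. Mat2a, which makes S-adenosylmethionine, went from 88.5% and 89.1% to 73.2% and 52.9% (adjusted p = 0.00456). Mtr, methionine synthase, had 76.5% and 64.4% before and 74.2% and 64.8% after, with no call here and a difference of 40.9 points, called, in the equal-length lists. Ahcy, which clears S-adenosylhomocysteine, had 68.9% and 67.4% before and 62.4% and 59.5% after, with no call.

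Setd2 itself, the writer of the mark, had 78.1% and 65.6% cover at day 0, 62.4% and 69.9% at control day 1 and 52.8% and 45.6% at restricted day 1. It fell by 22.6 points (SE 5.21, adjusted p = 0.00663), without a call in the equal-length lists (adjusted p = 0.0947) and with a centred difference of 1.04 points. Of 16 writers and erasers of H3K36 methylation 9 (56.25%, near the 55.5% of all tested genes) were lower and 0 higher (median -13.7 points, 2 lower and 3 higher at equal length, 0 lower and 8 higher when centred), and 5 or 4 were lower without day 0 replicate 1 or restricted replicate 2. Of 31 readers and elongation factors 19 (61.3%, against the same 55.5%) were lower and 0 higher (median -14.5 points, 9 lower and 1 higher at equal length, 3 lower and 11 higher when centred), and 11 or 10 were lower without the same libraries. Phf1, a Polycomb protein that reads the mark, fell from 77.9% and 76.9% to 30.7% and 19.3%. Morf4l1, the reader MRG15, fell from 76.7% and 75.9% to 44.0% and 36.2%.

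Immediate early genes are switched on within minutes of a stimulus and are mostly short. Of 38 immediate early and related regulators 35 (92.1%, against 55.5% of all tested genes) were lower and 0 higher (median -50.9 points, 29 lower and 0 higher at equal length, 23 lower and 2 higher when centred). Jun had 71.9% and 70.4% at day 0, 73.6% and 69.2% at control day 1 and no restricted peak. Dusp1, a MAP kinase phosphatase, had 75.6% and 80.4% at day 0 and Rhob, a small GTPase, 82.4% and 85.0%, each with no restricted peak. Myc had 60.7% and 59.7% at day 0, 19.4% and 20.8% at control day 1 and 12.8% and 6.99% at restricted day 1. Of 38 genes 27 are under 10 kb, a class in which 71.1% to 79.9% of all tested genes were lower. The 3 without a call were Nr4a1 and Klf9, both over 20 kb, and Ier5.

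Of 68 cytosolic ribosomal protein genes 66 (97.1%, against 55.5% of all tested genes) were lower and 0 higher (median -50.7 points, 66 lower and 0 higher at equal length, 42 lower and 3 higher when centred). Their median cover was 84.3% at day 0, 75.4% at control day 1 and 31.6% at restricted day 1. In both restricted libraries 11 of the 68 had no peak. Rpl18 and Rpl19 were the 2 without a call, with falls in points of 11.3 and 8.38. All but 1 are under 10 kb, where 71.1% to 79.9% of all tested genes were lower, and the exception, Rps15a, went from 95.2% and 95.1% to 48.0% and 34.5%. Of 35 proteasome genes 27 (77.1%, against 55.5% of all tested genes) were lower and 0 higher (median -16.6 points, 15 lower and 1 higher at equal length, 7 lower and 13 higher when centred).

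Of 46 tested genes of the extracellular matrix, 7 of them under 10 kb, 35 (76.1%, against 55.5% of all tested genes) were lower and 0 higher (median -18.0 points, 23 lower and 1 higher at equal length, 11 lower and 15 higher when centred). Ccn1, a matricellular protein gene, went from 80.7% and 94.1% to 23.6% and 0%. Timp1, a metalloproteinase inhibitor, had 81.2% and 62.8% at day 0, 29.2% and 29.0% at control day 1 and no restricted peak. Col1a1, collagen I, had 55.4% and 66.4% at day 0, 69.1% and 69.6% at control day 1 and 25.5% and 21.5% at restricted day 1, a fall not called in the equal-length lists (adjusted p = 0.662). Fn1, fibronectin, had 98.0% and 97.8% before and 95.2% and 93.9% after with no call, and was 1 of 26 genes with at least 90% in both restricted libraries, along with Acly, Cenpe, Heatr1, Snrnp200 and Top2a.

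Of 25 glycolysis genes 17 (68%, against 55.5% of all tested genes) were lower and 0 higher (median -23.8 points, 12 lower and 0 higher at equal length, 7 lower and 9 higher when centred). Gapdh had 76.5% and 76.7% before and 0% and 7.58% after, and Pkm, pyruvate kinase, 97.1% and 97.6% before and 66.3% and 57.6% after. Pdk4, a brake on pyruvate oxidation, had 89.2% and 78.0% at day 0, 27.2% and 30.5% at control day 1 and 59.7% and 60.8% at restricted day 1, so its restricted values lay between the other groups. Of 35 sterol and fatty acid genes 23 (65.7%, against 55.5% of all tested genes) were lower and 0 higher (median -15.4 points, 16 lower and 5 higher at equal length, 6 lower and 17 higher when centred), with Fdps falling from 88.6% and 89.1% to 45.2% and 42.0%. Acly had 94.3% and 96.8% before and 93.6% and 90.7% after, with no call. Of 23 p53 targets 13 (56.5%, against 55.5% of all tested genes) were lower and 0 higher (median -13.7 points, 9 lower and 0 higher at equal length, 3 lower and 9 higher when centred), and Bax, an effector of cell death, fell from 84.5% and 84.7% to 26.6% and 15.9%. Of 40 autophagy and lysosome genes 26 (65%, against 55.5% of all tested genes) were lower and 0 higher (median -17.3 points, 13 lower and 2 higher at equal length, 6 lower and 14 higher when centred, 17 lower without restricted replicate 2). Gabarap, an autophagosome protein gene of 3.58 kb, fell from 69.4% and 71.2% to 15.03% and 0%.

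Few promoter windows lay inside peaks in any group. A window from 250 bases before to 50 after the start was at least 50% covered for 3.26% and 3.65% of 9792 windows at day 0, 2.78% and 2.59% at control day 1 and 1.74% and 1.37% at restricted day 1.

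Peak quality differed between libraries, also between the day 0 replicates. The median fold enrichment of peaks was 2.805 and 3.201 at day 0 and 2.827 and 2.809 at restricted day 1, so these groups overlapped. Peaks with a −log10 q of at least 3 made up 33.96% and 52.2% of the day 0 lists, 35.2% and 32.3% of the control day 1 lists, and 29.3% and 24.7% of the restricted lists. The part of this in the differences above was not tested, beyond the equal-length lists and the lists of peaks at −log10 q of 3 or more.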

How the data were processed

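H3K36me3 ChIP-seq libraries of C2C12 cells were analysed from the deposited broad peak lists, 1 per library. Peaks carry a fold enrichment (ratio), a −log10 p and a −log10 q, which the authors deposited per peak. A score per peak was also deposited and was not used. Reads were mapped to GRCm38, per the submitters' processing notes, and sonicated chromatin was mixed with Drosophila spike-in chromatin, per the labels' protocols. The peak caller, its control and filters are not given in the sources used here, and no spike-in scaling or input was used. Sequencing depth is unknown, which limits the precision of every value. Peaks were merged within a library and intersected with RefSeq gene bodies of GRCm38.

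Cover was fitted with limma 3.58.1 (R 4.3.3), with trended and robust variance, over 10 wild-type libraries in 5 groups, with Benjamini-Hochberg adjustment over all tested genes. Covered length and marked genes were compared by exact two-sided permutation. Genes of at least 2 kb with a mean cover of at least 5% were tested. The fit was checked on simulated data. Lists were also cut, from the lowest −log10 q, to 109.9 Mb each, and libraries were centred on their median gene. Other alternatives were peaks at −log10 q of 3 or more, other filters and scales, the 4 compared libraries alone, a replicate block, and leaving out each library.

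The genes named were those called with the same sign in the equal-length lists, with groups that did not overlap and at most 20% overlap with another gene, up to 8 per direction of at least 10 kb and up to 4 per direction of shorter ones, plus up to 4 called members per gene list and members that define the list. Further genes, mostly members without a call or with control day 1 values that lay apart, were named after their values were seen. Members and gene lists were chosen with earlier results of these data known. Values of libraries outside the wild-type groups were not used here. Some genes that met the naming rule are not reported here.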

Additional observations from a re-analysis of the deposited data

How the results depend on the processing

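The fall in marked genes kept its direction under every alternative run for it, and the fall in covered length did so too, except that the equal-length lists cover the same length by construction. The count of 5301 genes was 3491 in the equal-length lists and between 3668 and 5246 when each library was left out. Genes called lower (5278) came to 2478 in the equal-length lists, 1143 after centring, and between 3646 and 5238 with a library left out. Genes called higher (23) came to 4 with peaks at −log10 q of 3 or more, 1013 in the equal-length lists, 6 with the 4 compared libraries alone, 60 with no filter on cover, 10 with a mean cover of at least 20%, 4345 after centring, and between 8 and 131 with a library left out. The difference in marked genes was -2515, with -1314.5 in the equal-length lists, -1892.5 with marking at 25% and -1891 at 75%. Length lost was 15.8 Mb in the equal-length lists, and length gained was 11.5 Mb there and 0.53 Mb at −log10 q of 3 or more. The equal-length lists remove more peaks from day 0 by construction, and the cause of the other changes was not tested.

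Among named genes called in at least one of the fits compared, centring turned the sign of 20, each by its added 23.7 points: Acly 20.3, Ahcy 16.5, Atf3 15.1, Cdh15 4.33, Dll1 23.4, Fn1 20.3, Klf9 23.7, Ldb3 11.7, Mars1 15.6, Mcm3 22.8, Mthfd2 18.3, Mtr 22.7, Nr4a1 22.04, Pdk4 0.36, Rpl18 12.3, Rpl19 15.3, Ryr1 22.3, Setd2 1.04, Snrnp200 22.5 and Top2a 18.5 points. Among the same kind of genes the equal-length lists turned Ldb3 (10.7) and Mtr (40.9). Peaks at −log10 q of 3 or more turned Agk (-1.14), Cryz (-0.31), Fastkd2 (-24.1, called lower), Lztfl1 (-2.98) and Zfp101 (-5.98). Other named genes turned without a call in either fit, among them Cdkn1a after centring (12.7), Nr4a1 (12.7), Klf9 (5.43), Dll1 (4.30), Ryr1 (2.53), Ahcy (0.32) and Atf3 (0.30) in the equal-length lists, and Brca2 (-4.81), Atm (-4.51), Ttn (-3.14), Dscc1 (-1.57) and Pole (-1.44) at −log10 q of 3 or more.

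Replicate numbers did not pair the libraries: deviations of same-numbered day 0 and restricted libraries correlated at 0.0614 across genes, and those of day 0 and control day 1 libraries at -0.439. With a replicate block 5149 genes were called, 5128 lower and 21 higher. Without sequencing depths, a lost peak cannot be told apart from a peak under the detection limit of a list.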
